A study of Mus musculus with 16 samples.

Results

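Of the mouse miRNAs on the array, 382 carry one of the later miRBase numbers, 5046 to 6769 or 7115 to 9769 as present on the array, which leaves out a block of consecutive numbers between these ranges. The 86 of them that the scanner software called detected on at least 1 of 16 serum arrays are described here as late-numbered miRNAs. They were thus chosen on their measured detection, and they make up 86 of the 572 miRNAs detected anywhere and of the 1881 on the array. The samples were sera of male mice aged 4, 8, 36 and 58 weeks, 4 mice at each age, with blood drawn from the heart and 1 ng of serum RNA labelled with Cy3 per array. No treatment, transgene or strain is named in the labels, so the groups differed in age alone as far as the labels say. The question was which serum miRNAs differ between young, adult and ageing mice.

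MiRNAs are short RNAs cut from a hairpin precursor, and either arm of the hairpin (5p or 3p) can be loaded into an Argonaute protein, where bases 2 to 8, the seed, pair with target mRNAs. miRBase gives numbers in the order of registration, so late numbers mostly belong to miRNAs first seen by deep sequencing, many of them scarce and little studied. Some of these come from mirtrons, short introns that fold into a hairpin after splicing, whose 5p arms tend to be rich in G and whose 3p arms tend to be rich in pyrimidines. In serum, miRNAs are carried by protein complexes, lipoproteins and vesicles released from blood cells and tissues.

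A mature sequence in the RefSeq table (GRCm38.p6) matched 74 of the 86. The sequences below, 5′ to 3′ with the seed in capitals, are those of late-numbered miRNAs that were detected on most arrays or that show the base content on which the results turn. First come miRNAs detected on 12 or more arrays, most of them rich in G.
miR-5100: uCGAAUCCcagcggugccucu
miR-6366: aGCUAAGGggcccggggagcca
miR-5126: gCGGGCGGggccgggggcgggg
miR-8110: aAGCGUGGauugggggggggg
miR-6769b-5p: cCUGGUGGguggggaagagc
miR-5128: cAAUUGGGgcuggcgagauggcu
miR-6368: cUGGGAAGcaguggaggggag
miR-8101: gGCGAGCGgagccggaggagcc
miR-8095: aAAGGAUUcugcugucuguccc
miR-7118-5p: uGGGGAAGgcgggagagggaac
miR-7686-5p: cCUUCCACuggaccuggggcugggc
The next are rich in C and U, and their signals moved together from array to array.
miR-8114: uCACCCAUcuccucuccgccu
miR-7681-5p: aUCCUGUCcuugcccucucu
miR-7235-3p: uCUGACUUcuugcuucucuccuc
miR-6418-3p: aCUGCAACcuccuuucuccagg
miR-7118-3p: uAACUCUAcguccuccuccaca
miR-7665-3p: aGCCAGGUcccuguccccuaca
The last are those called on all 4 arrays of one age and on none of another, the 5p partner of miR-6418-3p, and miR-8117, which had the smallest p for a trend with age.
miR-5119: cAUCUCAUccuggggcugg
miR-5622-3p: cUUAGCUGgguagugguggugc
miR-6418-5p: uCAGGGGAagggaagagaugc
miR-8117: gCUCGUGUggaacagaagggg

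All 74 seeds were different from each other. Outside the late-numbered miRNAs, detected miRNAs shared a seed with 3 of them. The seed of miR-6394 is that of miR-125a-5p, miR-125b-5p and miR-351-5p, the seed of miR-6368 is that of miR-3547-5p, and the seed of miR-5129-3p is that of miR-455-5p. In the RefSeq annotation 63 of the 74 lie within the span of another gene, 55 of them within a protein-coding gene, and 11 lie in none. For example, miR-5100 lies at chr11:60728698-60728718 on the plus strand within Mief2, which encodes a mitochondrial fission factor, and miR-5128 at chr2:37688212-37688234 on the minus strand within Strbp. MiR-5126 lies at chr1:84695890-84695911 on the plus strand within the span of Dner, a neuronal ligand of Notch. MiR-6366, at chr16:18165093-18165114 on the minus strand, and miR-8110, at chr8:89024791-89024811 on the plus strand, lie in no gene span. The strand of the gene was not compared with that of the miRNA, so a gene on the opposite strand counts as well. Whether a miRNA lies in an exon or an intron of such a gene was not analysed here. The letters AG, which end an intron, were searched as the last 2 bases on the miRNA's own strand. They end 12 of the 74 (16.2%), against 15.9% of the 1608 miRNAs on the array with a sequence.

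Late-numbered miRNAs were called detected less widely than the others, as a description, since detection chose them. The share detected on at least 1 array was 22.5% of their number range, against 41.5% for the block of numbers between, 27.5% for numbers from 1000 to under 5000 and 29.7% for those under 1000. Their median was 4 arrays with detection, against 6 in each of the other 3 ranges. A single array accounted for 22 of the 86 (25.58%), beside 120 of all 572 detected miRNAs (20.98%). In the other 3 ranges this share ran from 18.18% to 20.99%. For 18 of the 22 late-numbered ones that array was 4-week replicate 1. Exactly 2 arrays accounted for 13 more, and for 9 of these the arrays were 4-week replicate 2 and 8-week replicate 4. Only 12 were detected on at least 12 arrays and 2, miR-5100 and miR-6366, on all 16. The 22 detected on a single array had highest log2 signals over all 16 arrays from 1.92, the floor of the scale, to 7.99 (median 7.73). Those of the 296 in the number range detected on no array ran from the same floor to 7.62 (median 1.92). Such a highest signal need not lie on the array that detected the miRNA. The 7.99 was that of miR-7211-5p on 36-week replicate 4, where it was not detected. On 4-week replicate 1, which detected it, it read 6.80.

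The number detected per array overlapped between all ages. Detected late-numbered miRNAs numbered 53, 40, 34 and 27 in the 4-week replicates 1 to 4, 27, 26, 22 and 38 at 8 weeks, 16, 24, 41 and 27 at 36 weeks, and 34, 25, 18 and 20 at 58 weeks. They made up 9.80% to 15.8% of the 163 to 360 miRNAs detected on each array. The means were 38.5 ± 11.0 (SD, n = 4), 28.25 ± 6.85, 27.0 ± 10.4 and 24.25 ± 7.14 at 4, 8, 36 and 58 weeks. At least 1 detection was made for 83 of the 86 at 4 weeks, 48 at 8, 42 at 36 and 40 at 58 weeks, and 23 were detected at every age. The 4-week numbers include the 18 that were chosen through 4-week replicate 1 alone.

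The arrays differed in the spread of their negative-control spots, measured after background subtraction. Background level itself was not compared, and whether this spread bears on the results was not tested. The scanner software marked 3 arrays for evaluation. Their negative-control spots varied most, with an SD of 59.3 for 36-week replicate 4, of 19.1 for 4-week replicate 1 and of 7.45 for 4-week replicate 4, against 1.82 to 4.45 for the other 13 arrays. All arrays of 4 and 8 weeks lay on 1 slide and all arrays of 36 and 58 weeks on the other, so that only 8 against 4 weeks and 58 against 36 weeks compare mice within a slide. In the other comparisons age and slide cannot be told apart. Among serum markers, 5 of 6 erythrocyte, 5 of 6 platelet and endothelial, 3 of 5 leukocyte, both liver, 2 of 3 striated muscle and 1 of 3 brain miRNAs were detected. Those not detected were erythrocyte miR-144-5p, platelet and endothelial miR-126a-5p, leukocyte miR-142a-5p and miR-155-5p, muscle miR-206-3p, and brain miR-9-5p and miR-124-3p. The log2 of the summed erythrocyte markers lay between 11.4 and 12.9 on all arrays. The other sums ranged more widely, from 8.15 to 10.6 for platelet and endothelial and 5.40 to 8.12 for leukocyte markers. For liver they ran from 4.54 to 10.3, for striated muscle from 5.81 to 9.83 and for brain from 3.51 to 6.34. None of the markers passed a test between ages. Their part in the results on late-numbered miRNAs was not tested.

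**Figure D1:**
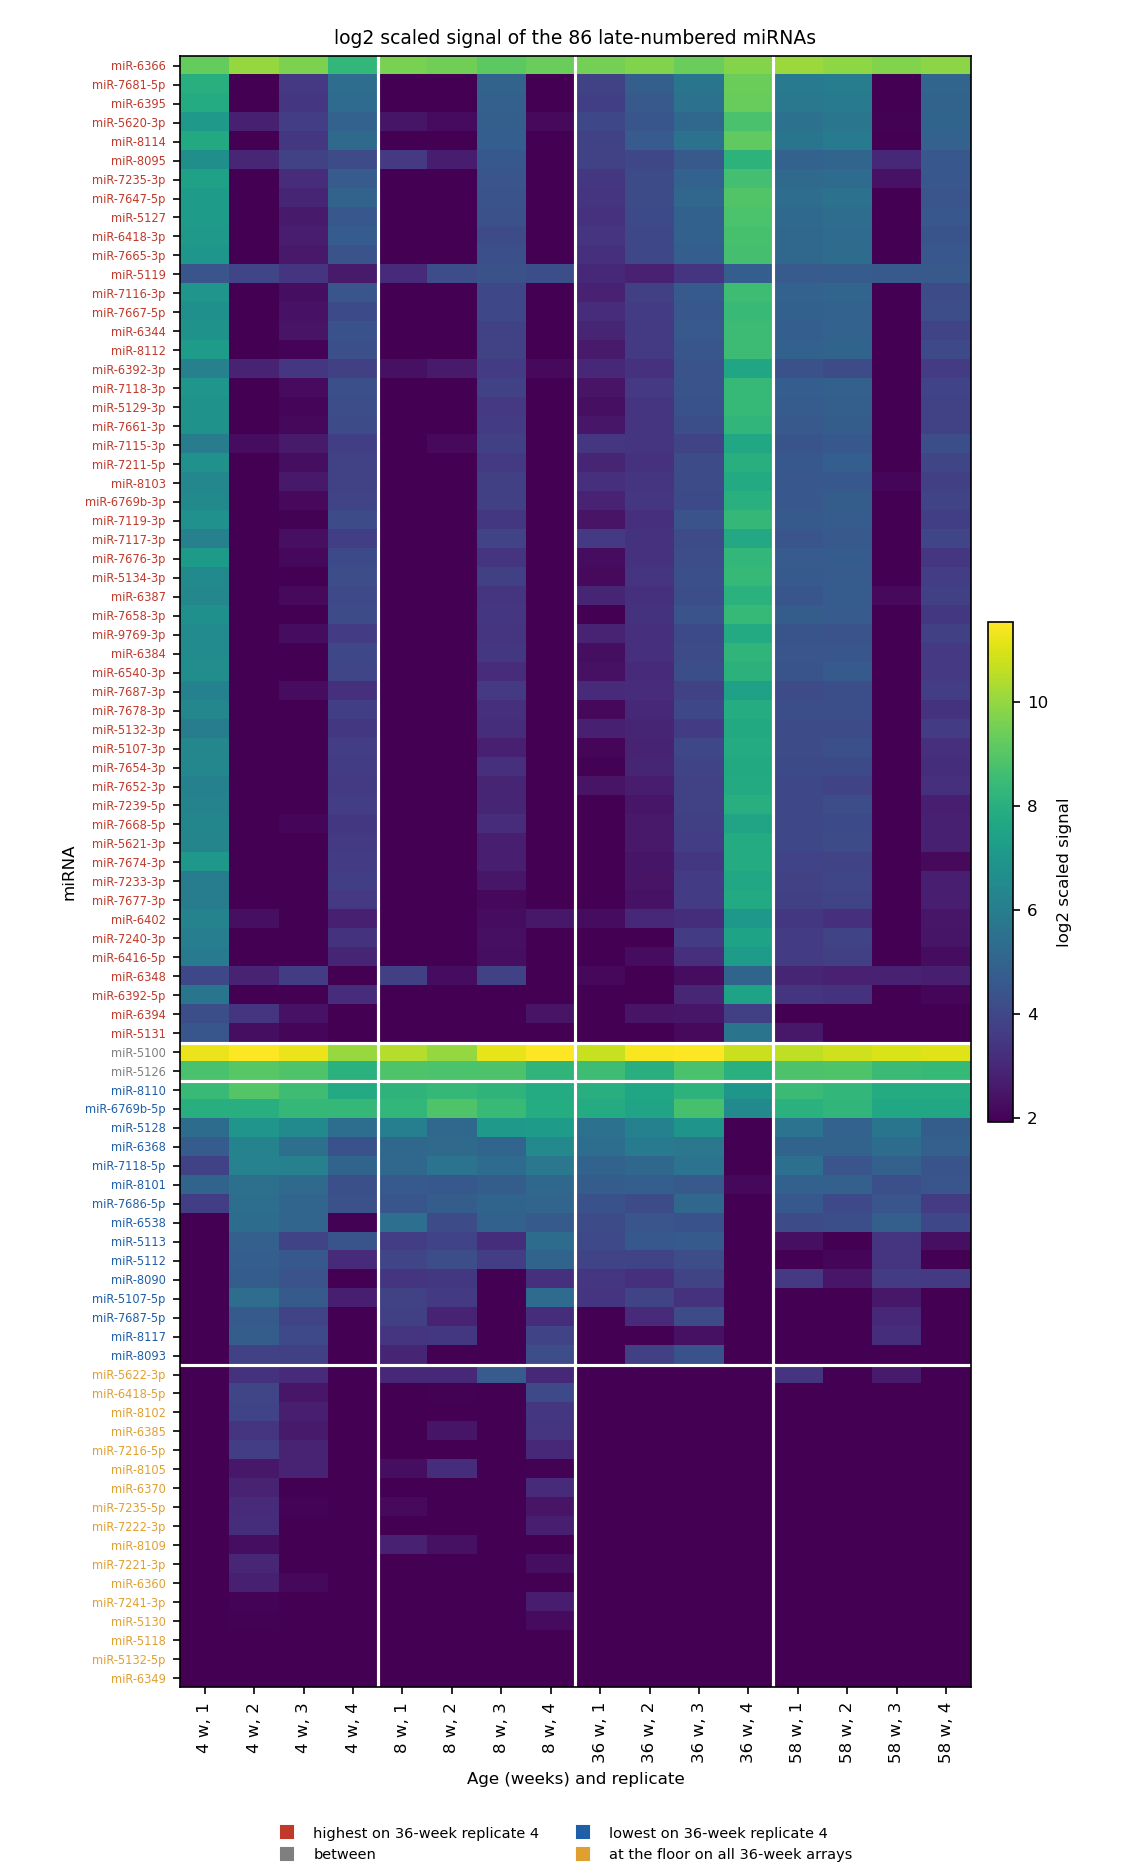
Each row is 1 of the 86 late-numbered miRNAs and each column 1 of the 16 arrays, ordered by age and replicate. Colour gives the log2 scaled signal, from the floor of 1.92 upward. The rows are grouped by their signal on 36-week replicate 4 against the other 36-week arrays, and 50 of the 52 rows at the top have their 2 highest signals on 36-week replicate 4 and 4-week replicate 1, all but miR-6366 and miR-5119.

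The signal of most late-numbered miRNAs moved between mice of the same age in 1 of 2 opposite ways. Of the 86, 52 had their highest 36-week signal on replicate 4 (called the high set here), and 15 had their lowest there (the low set). That array had the highest SD of the negative controls. A further 17 were at the floor on all 36-week arrays (the floor set), and 2, miR-5100 and miR-5126, lay between. The sets were drawn after the values were seen, so they are described and not tested. Their base content, which the sorting did not use, was different. In the high set the median share of G was 18.2% and that of C and U together 68.2%, over 45 miRNAs with a sequence. In the low set the medians were 48.0% G and 28.6% C and U over 13 miRNAs, and 10 of these 13 held a run of 4 G against 3 of the 45. The floor set had a median of 45.5% G over 14 miRNAs. Among the 37 late-numbered miRNAs with more C than G, 36 were in the high set and the other was miR-5100, while of the 32 with more G than C, 5 were in the high set. By arm, 29 of the 33 named 3p were in the high set and none in the low set, against 8 and 5 of the 17 named 5p.

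The split was not particular to late numbers. Outside them, 285 detected miRNAs were highest and 118 lowest on 36-week replicate 4. Over those with a sequence the median share of G was 14.3% and 34.8%.

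**Figure D2:**
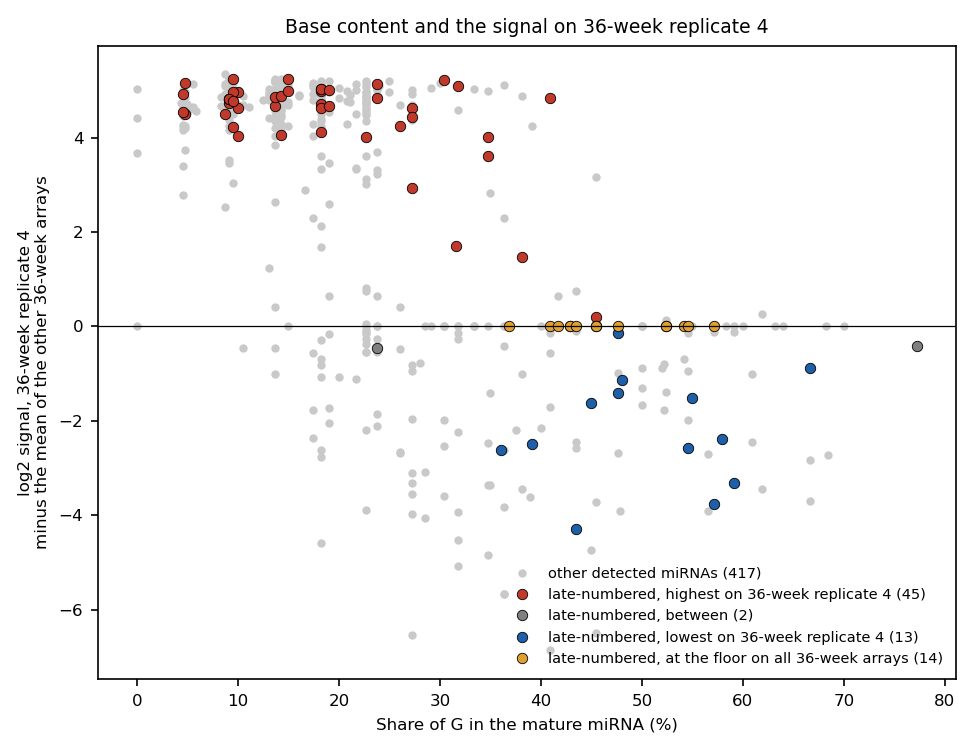
Each point is a detected miRNA with a sequence, placed by its share of G (x axis, %) and by its log2 signal on 36-week replicate 4 minus the mean of the other 3 36-week arrays (y axis). Coloured points are the 74 late-numbered miRNAs and grey points the 417 others. The 45 late-numbered miRNAs of the high set have 4.55% to 45.5% G and the 13 of the low set 36.0% to 66.7%.

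The same sets also moved apart within the other ages, whose values did not enter the sorting into sets. At 4 weeks the choice of members did enter, since 18 of the high set were detected on replicate 1 alone. The SD of the negative controls at 4 weeks was highest on replicate 1 and lowest on replicate 2. Of the high set, 51 of 52 were higher on replicate 1 than on replicate 2, with a median log2 difference of 4.46. Without those 18 it was 33 of 34, with a median of 4.84. In the low set 14 of 15 had a lower signal on replicate 1, with a median of -2.36. At 8 weeks, where the SD of the negative controls was 3.54 on replicate 3 and 1.82 on replicate 2, 49 of 52 in the high set were higher on replicate 3 (median 1.55), and 10 of 15 in the low set were lower (median -0.29). At 58 weeks, with 4.45 on replicate 1 and 2.23 on replicate 3, 51 of 52 were higher on replicate 1 (median 2.49) and 9 of 15 were lower (median -0.10). Outside the late numbers the medians of the high set were 4.52, 1.48 and 2.43 at 4, 8 and 58 weeks. The cause of this split was not tested.

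The C- and U-rich miRNAs of the high set can be read from miR-8114 and miR-7681-5p. MiR-8114 had log2 signals of 7.77, 1.92, 3.49 and 5.24 in 4-week replicates 1 to 4, 1.92, 1.92, 4.82 and 1.92 at 8 weeks, 3.83, 4.69, 5.52 and 9.18 at 36 weeks and 5.66, 5.91, 1.92 and 4.94 at 58 weeks, where 1.92 is the floor. Each age thus held both low and high arrays, and the ages overlapped. For miR-7681-5p the values were 7.98, 1.92, 3.52 and 5.38, 1.92, 1.92, 4.98 and 1.92, 3.79, 4.82, 5.65 and 9.38 and 5.89, 6.01, 1.92 and 5.05 in the same order. MiR-6395 read 7.84, 1.92, 3.45 and 5.28 at 4 weeks, 1.92, 1.92, 4.86 and 1.92 at 8 weeks, 3.73, 4.63, 5.56 and 9.32 at 36 weeks and 5.76, 5.94, 1.92 and 4.99 at 58 weeks. All 3 were highest on 36-week replicate 4 and 4-week replicate 1, and at the floor on 4-week replicate 2, 8-week replicates 1, 2 and 4 and 58-week replicate 3.

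Hairpins with both arms detected show the split within 1 precursor. Of 8 such hairpins, 7 (miR-5107, miR-5132, miR-6418, miR-6769b, miR-7118, miR-7235 and miR-7687) had the 3p arm in the high set and the 5p arm in the low or floor set, and in miR-6392 both arms were in the high set. In miR-7118 the 5p arm, 59.1% G, read 3.83, 6.19, 6.12 and 5.01 at 4 weeks and 4.97, 5.19, 5.58 and 1.92 at 36 weeks. Its 3p arm, 4.55% G, read 6.93, 1.92, 2.22 and 4.26 and 2.43, 3.51, 4.41 and 8.38. The 5p arm was thus lowest, and the 3p arm highest, on the same array at each of these ages. The 3p arm of miR-6418 was detected on 10 arrays and the 5p arm on 5, and only 1 array detected both. In miR-6769b the 5p arm was detected on 15 arrays and stayed between 6.52 and 8.89, while the 3p arm, detected on 5, ran from the floor to 8.02.

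**Figure D3:**
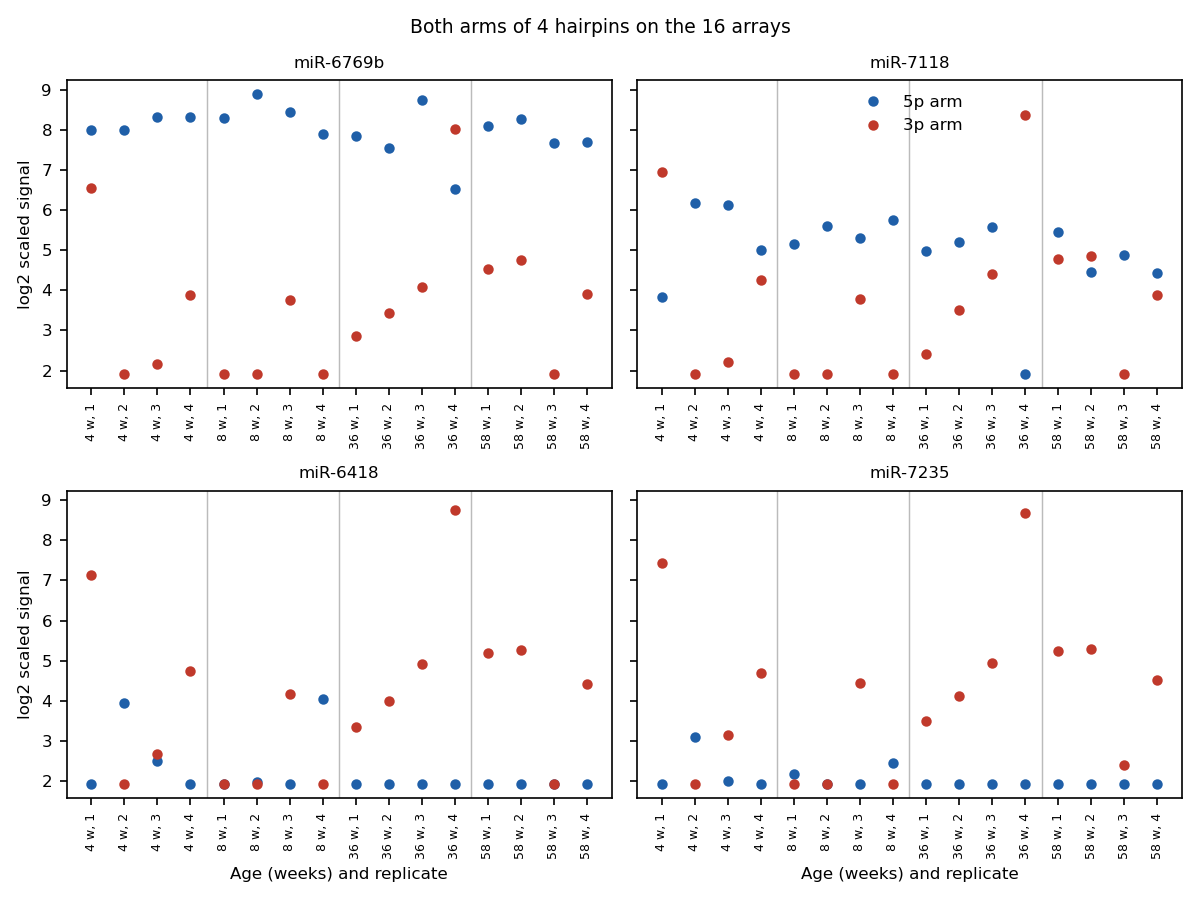
Points give the log2 scaled signal (y axis) of the 5p arm (blue) and the 3p arm (red) of 4 hairpins on each of the 16 arrays (x axis, by age and replicate). The 3p arms peak on 36-week replicate 4 and 4-week replicate 1, where the 5p arm of miR-7118 has its lowest values. Heights are not comparable between arms, which have different probes.

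The levels of the late-numbered miRNAs detected on most arrays overlapped between most ages. MiR-5100, detected on every array, had log2 signals of 11.26, 11.55, 11.25 and 10.04 at 4 weeks, 10.48, 10.02, 11.20 and 11.51 at 8, 10.73, 11.47, 11.51 and 10.78 at 36 and 10.64, 10.84, 10.99 and 11.07 at 58 weeks. Its 4 means lay between 10.81 and 11.12 with SDs of 0.19 to 0.68, so the ages overlapped. MiR-6366, the other one detected everywhere, read 9.26, 10.02, 9.65 and 8.30 at 4 weeks, 9.61, 9.48, 9.11 and 9.36 at 8, 9.54, 9.72, 9.36 and 9.74 at 36 and 10.09, 9.90, 9.72 and 9.89 at 58 weeks. Its means were 9.30 ± 0.74, 9.39 ± 0.21, 9.59 ± 0.18 and 9.90 ± 0.15 (SD, n = 4 each). All 58-week values lay above all 8-week values, while 4 and 36 weeks overlapped with the other ages. It counts in the high set by a narrow margin, with 9.74 on 36-week replicate 4 beside 9.72 on replicate 2, and its 2 highest signals lay on 58-week replicate 1 and 4-week replicate 2. The difference of 58 from 4 weeks was 0.60 ± 0.40 (SE, limma adjusted p = 0.897), and without scaling between arrays it was -0.43. Leaving out 4-week replicate 4 brought it to 0.26, and leaving out all 3 marked arrays to 0.069. MiR-5126, a miRNA of only G and C, read 8.78, 9.05, 8.91 and 8.05 at 4 weeks, 8.88, 8.82, 8.86 and 8.20 at 8, 8.57, 7.98, 8.80 and 8.02 at 36 and 8.87, 8.89, 8.47 and 8.37 at 58 weeks. Its means spanned 8.34 to 8.70, and every age overlapped with every other.

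Of the others detected on at least 12 arrays, 7 were in the low set and 2 in the high set. MiR-8110 read 8.44, 8.96, 8.57 and 7.79 at 4 weeks, 8.19, 8.35, 8.17 and 7.84 at 8, 7.97, 7.61, 8.16 and 7.03 at 36 and 8.50, 8.30, 7.84 and 7.83 at 58 weeks. MiR-6769b-5p had 8.00, 8.00, 8.33 and 8.32, 8.28, 8.89, 8.43 and 7.88, 7.84, 7.55, 8.74 and 6.52 and 8.09, 8.27, 7.68 and 7.68 at these ages. Both were lowest on 36-week replicate 4 and otherwise overlapped between ages. The values of miR-5128 were 5.34, 6.95, 6.52 and 5.40 at 4 weeks, 6.09, 5.16, 7.10 and 7.23 at 8, 5.56, 6.17, 6.91 and 1.92 at 36 and 5.60, 4.94, 5.68 and 4.75 at 58 weeks. MiR-6368 gave 4.73, 6.23, 5.48 and 4.34, 5.13, 5.26, 5.06 and 6.46, 5.39, 5.88, 5.75 and 1.92 and 5.04, 4.99, 5.32 and 4.88. Either of them was at the floor on 36-week replicate 4 alone. The other 36-week values of miR-6368 lay above its 58-week values, while those of miR-5128 overlapped with them. MiR-8101 read 5.04, 5.48, 5.24 and 4.25 at 4 weeks, 4.63, 4.57, 4.76 and 5.15 at 8, 4.78, 4.78, 4.59 and 2.14 at 36 and 4.90, 4.86, 4.29 and 4.44 at 58 weeks, again with 1 low value on 36-week replicate 4. MiR-7118-5p, given above at 4 and 36 weeks, read 5.14, 5.59, 5.30 and 5.75 at 8 weeks and 5.44, 4.45, 4.87 and 4.44 at 58 weeks. MiR-7686-5p gave 3.69, 5.40, 5.08 and 4.31, 4.49, 4.77, 5.04 and 5.07, 4.35, 4.14, 5.12 and 1.92 and 4.58, 4.03, 4.44 and 3.63. In the last of these 36-week replicate 4 was at the floor, and no age stood clear of all the others.

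MiR-5620-3p and miR-8095, of the high set like miR-6366, were high on the 36-week array where the low set was lowest. MiR-5620-3p read 7.14, 2.78, 3.66 and 4.95 at 4 weeks, 2.47, 2.20, 4.82 and 2.16 at 8, 4.00, 4.50, 5.15 and 8.79 at 36 and 5.55, 5.70, 1.96 and 5.01 at 58 weeks. MiR-8095 had 6.73, 2.97, 3.78 and 4.15, 3.52, 2.68, 4.56 and 1.92, 3.84, 3.96, 4.60 and 8.14 and 4.94, 5.08, 3.03 and 4.55 in that order. Either was highest on 36-week replicate 4 and next highest on 4-week replicate 1, and within each age the values spread over more than 2 log2 units.

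**Figure D4:**
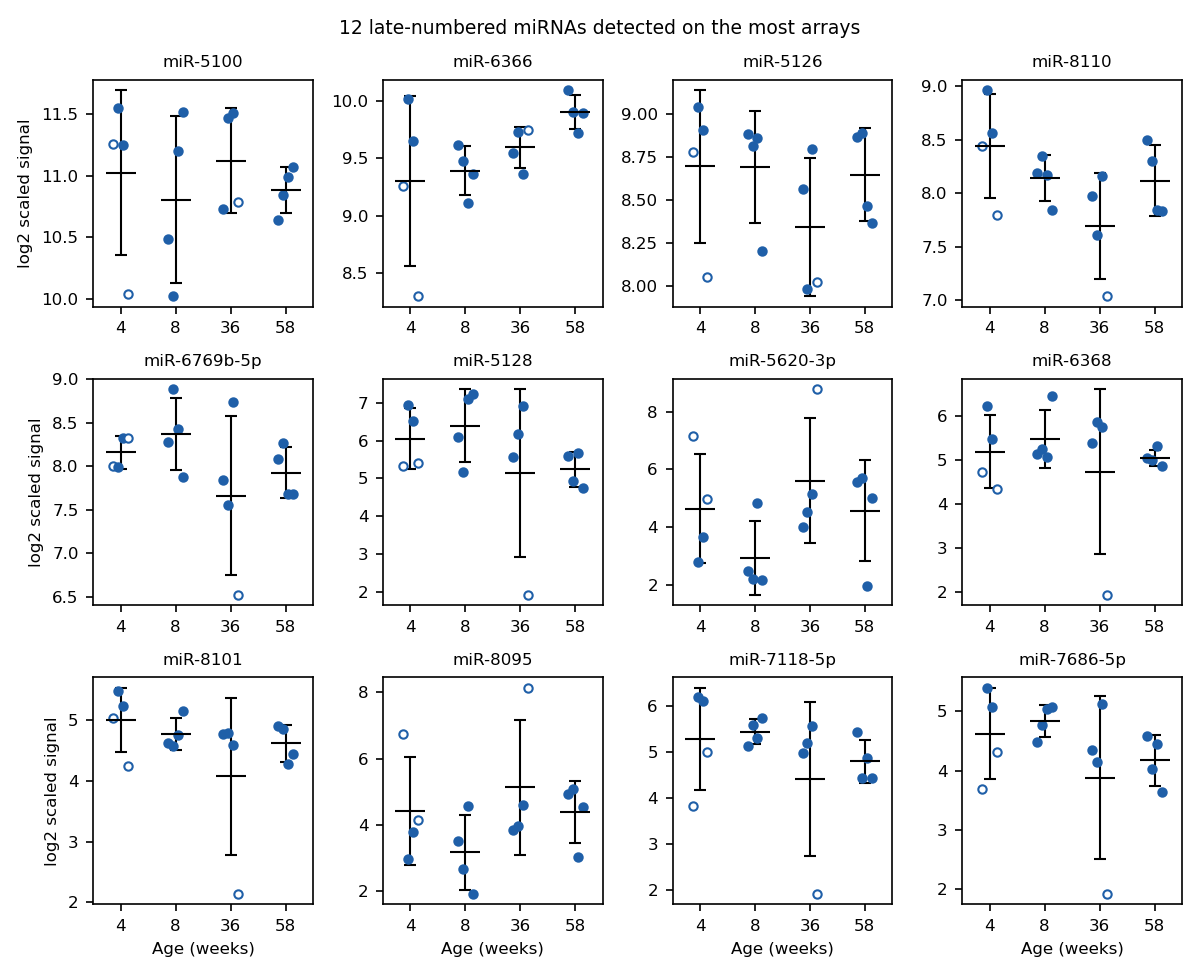
Each panel shows the log2 scaled signal (y axis, scaled per panel) of 1 of the 12 late-numbered miRNAs detected on the most arrays, by age in weeks (x axis). Points are mice, open where the array was marked for evaluation, and bars give the mean and SD of 4 mice. In miR-5128, miR-6368 and miR-7118-5p the 36-week mean rests on 3 mice at 4.97 or higher and 1 at the floor of 1.92.

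A test between ages was made for the 32 late-numbered miRNAs detected on at least 3 of 4 arrays of some age, among 285 such miRNAs in all, with limma and Benjamini-Hochberg adjustment over the 285. The other 54 were too rarely detected. This filter itself favours miRNAs that are high at 1 age, so counts over the 32 are descriptions. No late-numbered miRNA passed at an adjusted p of 0.05 in any of the 6 pairs of ages or in the trend with age. Over all 285, the share that passed was 0% in 8 against 4, 58 against 36, 36 against 8 and 58 against 8 weeks, and 0.351% (1 miRNA, not a late-numbered one) in each of 36 against 4 weeks, 58 against 4 weeks and the trend.

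Within a slide, 8 against 4 weeks had 0 of 32 late-numbered miRNAs at an unadjusted limma p under 0.05, against 2.11% of all 285. The smallest p belonged to miR-5622-3p, at 0.86 ± 0.53 (log2 difference ± SE). MiR-6538 (1.23), miR-5620-3p (-1.72), miR-8114 (-1.96) and miR-7681-5p (-2.01) came next, and each of the 5 had an adjusted p of 0.536. The median difference of the 32 was -0.13, against -0.72 for all 285. Leaving out 4-week replicate 1 alone brought miR-5620-3p to -0.89, miR-8114 to -0.91 and miR-7681-5p to -0.92. Without the 3 marked arrays these were -0.31, -0.060 and -0.033, and miR-6538 was -0.40, the opposite sign. The medians were then -0.37 for the 32 and -0.32 for the 285. Over the alternatives the median of the 32 ran from -1.14 to 0.34, so its sign was not settled.

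In 58 against 36 weeks 1 of the 32 had an unadjusted p under 0.05, against 1.75% of the 285. This was miR-5119, which read 4.45, 3.92, 3.35 and 2.62 at 4 weeks, 3.09, 4.18, 4.29 and 4.22 at 8, 3.05, 2.80, 3.42 and 4.80 at 36 and 4.69, 4.71, 4.61 and 4.62 at 58 weeks. It was detected on 2, 4, 0 and 4 arrays at these ages. The 58-week values lay within 0.1 of each other and above those of 36 weeks except replicate 4. The log2 difference was 1.15 ± 0.52 (SE, limma adjusted p = 0.717). Because no 36-week array detected it, its fold is a bound, at least 1.32-fold higher at 58 weeks with all arrays. The bound was 2.91-fold without 36-week replicate 4 and fell under 1 without 36-week replicate 2. Its 3 probes did not move alike, 2 being higher and 1 lower on 36-week replicate 4 than on the other 36-week arrays.

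In the same comparison miR-5113, miR-5112, miR-6392-3p and miR-5107-5p had the next smallest p, with differences of -1.30, -1.17, -1.07 and -1.05 and the same adjusted p of 0.717 (limma). MiR-5112 read 1.92, 4.81, 4.57 and 3.05 at 4 weeks, 3.93, 4.19, 3.66 and 5.04 at 8, 3.91, 3.88, 4.19 and 1.92 at 36 and 1.92, 2.04, 3.36 and 1.92 at 58 weeks. MiR-5113 gave 1.92, 4.87, 3.90 and 4.43, 3.66, 3.86, 3.19 and 5.33, 4.03, 4.56, 4.66 and 1.92 and 2.31, 1.92, 3.39 and 2.33. Both had their 58-week values below the 36-week replicates 1 to 3, with replicate 4 at the floor. MiR-6392-3p was detected on no 58-week array. At 36 weeks, where only 1 array detected it, the bound was 2.10-fold, or 1.05-fold without 36-week replicate 4 and 3.02-fold without 36-week replicate 1. Its signal of 7.56 on replicate 4 was not called detected but entered the 36-week mean, so 2.10-fold is no strict lower limit. With 3 detections at each of 4 and 8 weeks, the bounds against 58 weeks were 1.47 and 0.58.

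Across slides, 36 against 8 weeks had the most small p-values. Of the 32, 10 had an unadjusted limma p under 0.05, 9 of them higher at 36 weeks, a share of 31.25% beside 29.8% of all 285. All 9 belonged to the high set. MiR-7681-5p (3.22 ± 1.40 SE), miR-8114 (3.16 ± 1.35), miR-6395 (3.15 ± 1.38) and miR-5620-3p (2.70 ± 1.18) each had an adjusted p of 0.151. The 13 tested members of the high set had a median difference of 2.75 (12 of 13 above 0) and the 14 of the low set one of -0.72 (13 of 14 below 0). The sets were sorted on 36-week replicate 4, which is part of the 36-week mean, so this contrast is partly built in. Without 36-week replicate 4 these medians were 1.61 (12 of 13 above 0) and -0.19 (10 of 14 below 0). Under normexp background correction they were 1.11 and 0.05, so that the low set lost its sign.

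The 1 below 0 among the 10 was miR-5622-3p, at 1.92, 3.34, 3.10 and 1.92 in the 4-week replicates, 2.98, 2.99, 4.70 and 3.03 at 8 weeks, the floor on all 36-week arrays and 3.41, 1.92, 2.61 and 1.92 at 58 weeks. It was detected on 2 arrays at 4 weeks, on all 4 at 8 weeks and on none later. The fitted difference of 36 from 8 weeks was -1.50 ± 0.53 (SE, limma adjusted p = 0.151) and is no bound on the change. Set against the lowest detectable signal of each 36-week array the bound lay under 1, and without 36-week replicate 4 the 8-week signal exceeded it at least 1.90-fold. The bound against 58 weeks lay above 1 with all arrays but under 1 without 8-week replicate 3. By contrast miR-7665-3p, of the high set, was detected on no 8-week array. Its bound over that age was 2.74-fold at 4 weeks and, across slides, 6.44-fold at 36 and 3.33-fold at 58 weeks. It read 6.97, 1.92, 2.57 and 4.38 at 4 weeks and 1.92, 1.92, 4.25 and 1.92 at 8 weeks, so these ages overlapped. The limma adjusted p against 8 weeks was 0.536 at 4, 0.151 at 36 and 0.408 at 58 weeks. Without the 3 marked arrays the fitted difference of 8 from 4 weeks was 0.26, higher at 8 weeks. Leaving out 1 array, the bound at 4 weeks ran from 1.37-fold (without 4-week replicate 1) to 4.39-fold (without replicate 2). The bound at 36 weeks ran from 2.85-fold (without replicate 4) to 10.1-fold (without replicate 1), and that at 58 weeks from 2.58-fold (without replicate 2) to 5.68-fold (without replicate 3).

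In 58 against 8 weeks 1 of the 32 had an unadjusted p under 0.05, against 5.26% of the 285. This was miR-5112 (log2 difference -1.89 ± 0.69 SE, limma adjusted p = 0.408), whose 58-week values all lay below its 8-week values. MiR-5113 (-1.52), miR-5107-5p (-1.55), miR-5622-3p (-0.96) and miR-7235-3p (1.81) followed, at the same adjusted p. The values of miR-5107-5p were 1.92, 5.35, 4.66 and 2.71 at 4 weeks, 3.77, 3.55, 1.92 and 5.27 at 8, 3.38, 3.90, 3.33 and 1.92 at 36 and 1.92, 1.92, 2.55 and 1.92 at 58 weeks. It was at the floor on 3 of 4 arrays at 58 weeks and on 1 array of each other age.

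In 36 against 4 weeks 0 of the 32 had an unadjusted p under 0.05, against 3.51% of the 285. MiR-8110 (-0.75), miR-8117 (-1.13), miR-8101 (-0.93), miR-5622-3p (-0.65) and miR-7686-5p (-0.74) had the smallest p, with an adjusted limma p of 0.656 each. The same count of 0, against 4.56%, held in 58 against 4 weeks. There miR-5119 (1.07), miR-5107-5p (-1.58), miR-5112 (-1.28) and miR-5113 (-1.29) had an adjusted limma p of 0.864 each. The medians over the 32 were -0.09 and -0.12, against 0.32 and -0.0031 over the 285. These comparisons share the 4-week arrays.

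The trend was fitted as the slope of log2 signal per doubling of age. Of the 32, 1 had an unadjusted p under 0.05, against 8.77% of the 285. This was miR-8117, at 1.92, 4.75, 4.03 and 1.92 in the 4-week replicates, 3.36, 3.48, 1.92 and 3.90 at 8 weeks, 1.92, 1.92, 2.34 and 1.92 at 36 weeks and 1.92, 1.92, 3.18 and 1.92 at 58 weeks. It was off the floor on 2, 3, 1 and 1 arrays at the 4 ages, and the ages overlapped at the floor. Its slope was -0.31 ± 0.14 (SE, limma adjusted p = 0.525), and 0.10 with slide as a block. MiR-5107-5p (-0.36), miR-5112 (-0.32), miR-6418-5p (-0.19) and miR-6366 (0.14) had the same adjusted p. All 13 tested members of the high set had slopes above 0 (median 0.32) and 12 of the 14 of the low set below 0 (median -0.19, but 0.10 under normexp background correction), beside a median of 0.12 over all 285. With slide as a block the medians were -1.60 and 0.10, each of the opposite sign.

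The number of calls changed with the arrays in the fit and with their weights. With array weights in limma, the shares of all 285 that passed were 15.1% in 58 against 36 weeks, 63.2% in 36 against 8, 67.7% in 58 against 8, 4.21% in 36 against 4, 62.1% in 58 against 4, 68.8% in the trend and 0% in 8 against 4 weeks. The late-numbered miRNAs that passed then were 4, 17, 18, 1, 19, 23 and 0 of 32 in the same order. Without the 3 arrays marked for evaluation, 17 of the 32 passed the trend test at a limma adjusted p under 0.05, beside 54.7% of all 285 (156, of which 109 were higher with age). The 8 that rose with age were all of the high set: miR-7681-5p, miR-6395, miR-8114, miR-5127, miR-7647-5p, miR-7665-3p, miR-6418-3p and miR-7235-3p, with slopes from 0.56 to 0.65. The 9 that fell were miR-5107-5p, miR-5112, miR-8117, miR-7687-5p, miR-5622-3p, miR-5128, miR-7118-5p, miR-7686-5p and miR-6538, with slopes from -0.56 to -0.22, all of the low set but miR-5622-3p of the floor set. The smallest adjusted p was that of miR-8117 (slope -0.50 ± 0.12 SE, adjusted p = 0.0222), followed by miR-5112 (-0.52 ± 0.13, adjusted p = 0.0249). In 58 against 4 weeks 4 of the 32 passed, all lower at 58 weeks, beside 12.3% of the 285. These were miR-5112 (-2.38 ± 0.49 SE, limma adjusted p = 0.0156), miR-5107-5p (-2.93 ± 0.69, 0.0275), miR-8117 (-2.16 ± 0.56, 0.0327) and miR-7118-5p (-1.35 ± 0.38, 0.0449). In 36 against 4 weeks 0 of the 32 passed, beside 1.75% of the 285. In the other 4 pairs no miRNA passed, those within a slide among them.

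The 13 arrays left were not alike in the spread of their negative controls between slides. The SD of the negative controls had a median of 2.02 (1.82 to 3.54) over the 6 arrays of 4 and 8 weeks and of 3.79 (2.23 to 4.45) over the 7 of 36 and 58 weeks. With slide as a block on the same 13 arrays, a fit added after seeing the data, 0 of the 32 and 0 of the 285 passed, and 7 of the 13 high-set members had slopes above 0 (median 0.02), while 13 of the 14 low-set members stayed below 0 (median -0.68). Age, slide and the spread of the negative controls thus cannot be told apart in the calls made without the marked arrays.

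**Figure D5:**
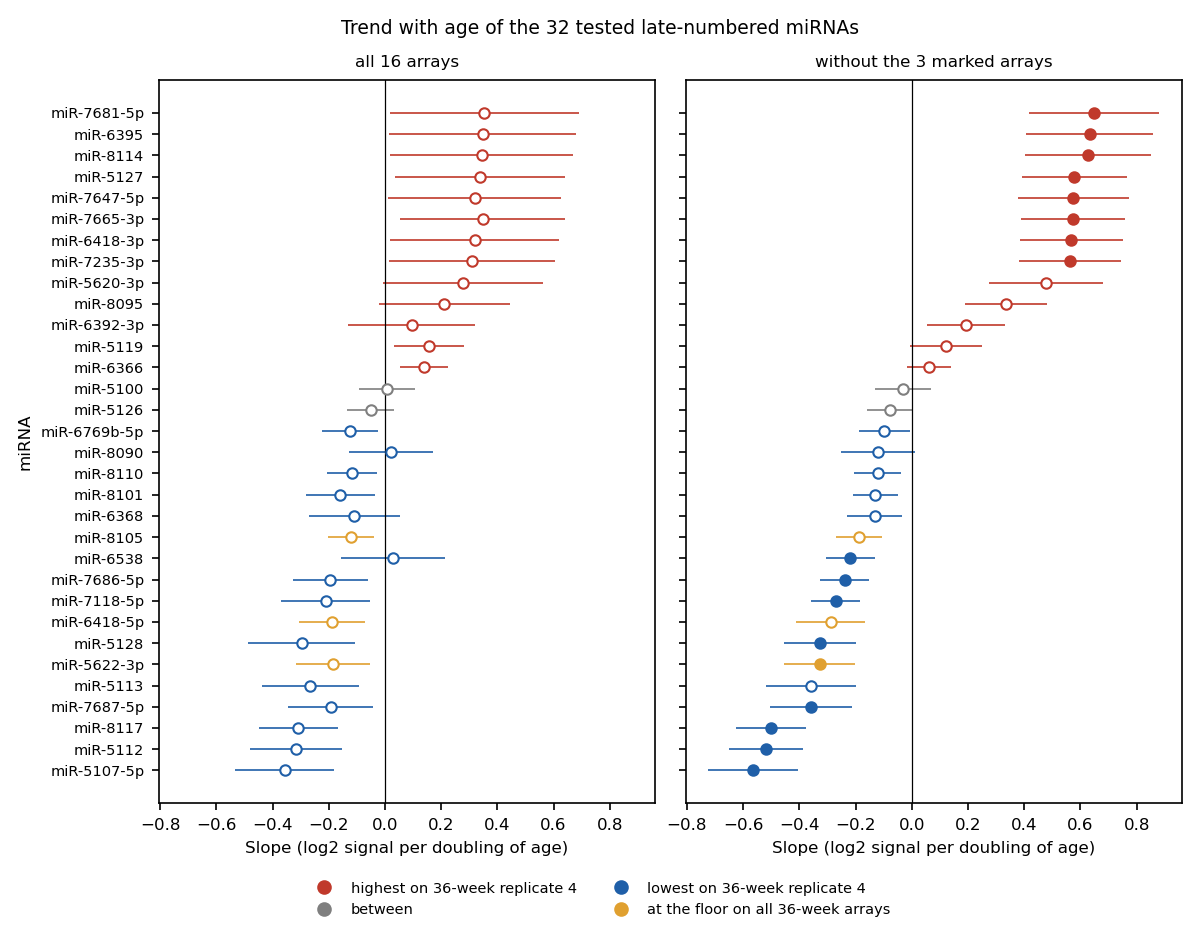
Slopes of log2 signal per doubling of age (x axis, with SE) of the 32 tested late-numbered miRNAs (y axis), over all 16 arrays on the left and without the 3 marked arrays on the right. Filled points have a limma adjusted p under 0.05, which holds for 0 on the left and 17 on the right. Red points, the high set, lie above 0 and most blue ones, the low set, below 0 in both panels. Under normexp background correction 12 of the 14 in the low set lie above 0.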

How the data were processed

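Each of the 16 deposited files is the scanner output of 1 single-colour Agilent mouse miRNA array, read with Agilent's Feature Extraction software, which the submitters' processing notes give as version 11.5. The spot intensity used here is the authors' deposited background-subtracted signal, and the detection calls and outlier flags are theirs too. No scaling between arrays is recorded per the file headers.

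Spots with an outlier flag were dropped, and each miRNA's intensity is the mean of its probe means. Arrays were scaled so that the 24 miRNAs detected on every array have an equal 75th percentile. Values were then floored at 3.79 (log2 1.92) and taken to log2, a scale computed here and not by the authors. The floor is the median over arrays of the lowest positive scaled signal of a detected miRNA. The comparisons of ages used lmFit and eBayes of limma 3.58.1 (R 4.3.3) on the 285 miRNAs detected on at least 3 of 4 arrays of some age, with 1 mean per age or, for the trend, log2 of age in weeks. P-values were adjusted by Benjamini-Hochberg over the 285, with a threshold of 0.05. The fit was tested on simulated data with independent noise, equal in spread on all arrays, and without a floor or slide effect. That test does not show how the fit behaves where arrays differ as they do here. The number of arrays limits the precision, and no spot was saturated. Where no array of an age detected a miRNA, its fold is a bound: the brighter mean against the mean, per array, of the higher of the lowest detected signal and its own. Such a bound takes in arrays without detection in the brighter age, and is then no strict lower limit.

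The miRNAs named are the 12 detected on the most arrays, the 5 with the smallest p in each comparison, those detected on all 4 arrays of an age and none of another, and examples chosen after their values were seen (the hairpins, miR-7665-3p and the calls made without marked arrays). The members and lists were chosen with earlier results of these data known.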

Additional observations from a re-analysis of the deposited data

Results flagged for a closer look

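For the number of late-numbered miRNAs detected at each age, and for the log2 signal of each named miRNA at each age with no more than 1 array at the floor, 88 groups of 4 mice were searched for a mouse far from the other 3. Chance alone marks about 1 in 20 groups, or 4.4 of 88, and 10 were marked. At 8 weeks miR-5119 had a log2 signal of 3.09 in replicate 1, against 4.18 to 4.29 in the others. MiR-5126 had 8.20 in replicate 4, against 8.82 to 8.88, and miR-6368 had 6.46 there, against 5.06 to 5.26. In replicate 3 of that age miR-5620-3p read 4.82 (others 2.16 to 2.47) and miR-5622-3p read 4.70 (others 2.98 to 3.03). The other 5 lay on 36-week replicate 4, the array whose negative controls varied most. All 5 belong to the low set, none of which was called detected on that array. MiR-8101 read 2.14 there, against 4.59 to 4.78 in the other 36-week mice. At the floor of 1.92 on that array were miR-5112 (others 3.88 to 4.19), miR-6368 (others 5.39 to 5.88), miR-6538 (others 4.13 to 4.45) and miR-7118-5p (others 4.97 to 5.58).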

How the results depend on the processing

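No late-numbered miRNA passed in any of the 7 comparisons when any 1 of the 16 arrays was left out (0 to 0), and all 560 differences of named miRNAs from those fits kept their direction. Leaving out an array of neither age cannot change the difference of a pair of ages, so part of the 560 was fixed in advance. These differences had also been picked for their small p in the same data. With array weights in limma, 4 of the 32 passed in 58 against 36 weeks, 17 in 36 against 8, 18 in 58 against 8, 1 in 36 against 4, 19 in 58 against 4 and 23 in the slope, beside 43, 180, 193, 12, 177 and 196 of all 285. Without the 3 marked arrays, 4 passed in 58 against 4 weeks, where only 4-week replicates 2 and 3 were left, and 17 in the slope. With the slide as a block, in a fit chosen after seeing the data, none of those 17 passed. The weights did not reach their tolerance in 1 fit, and the cause of these differences was not tested. With the replicate number as a block, 0 of the 32 passed in each comparison. The labels do not say whether equal replicate numbers pair the mice. The deviations of same-numbered arrays correlated from -0.896 to 0.812, and those of other arrays of different ages from -0.915 to 0.927. Only 2 of 16 arrays correlated best with their own number. Both ranges are wide, so this check cannot settle a pairing. Under normexp background correction (offset 50), differences turned in sign for miR-5107-5p (0.17 in 58 against 36 weeks, 0.21 in 58 against 8, 0.37 in 58 against 4 and 0.079 in the slope), miR-5112 (0.19, 0.24, 0.48 and 0.099 in the same order) and miR-5113 (0.018, 0.25 and 0.40 in the first 3). They also turned for miR-5622-3p (0.12 in 36 against 8, 0.42 in 58 against 8 and 0.46 in 36 against 4), for miR-8117 (0.30 in 36 against 4 and 0.13 in the slope), for miR-8101 (0.36) and miR-7686-5p (0.26) in 36 against 4, and for miR-6418-5p in the slope (0.14). Other reversals were miR-6392-3p in 58 against 36 weeks with array weights (0.57), miR-6538 in 8 against 4 weeks without the 3 marked arrays (-0.40), and the slope of miR-8117 with the slide block (0.10). MiR-6366 turned without scaling (-0.43 in 58 against 4, -0.072 in the slope) and in its slope with the slide block and without the 3 marked arrays (-0.078). The cause of each reversal was not tested. The number of late-numbered miRNAs detected was 86, or 67 without the 3 marked arrays and 64 where detection on 2 arrays was required. Scaling to the percentile over all miRNAs was not run, since it lay above 0 on 15 of 16 arrays. Signal over background limits these values: the lowest detected scaled signal lay between 0.28 and 201.8 across arrays.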
